A study of Homo sapiens with 39 samples.

Results

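Nucleotide excision repair removes bulky and helix-distorting lesions from DNA, and translesion synthesis lets replication pass the lesions that remain. This report describes 10 genes of these routes in HepaRG™ cells exposed to DNA damage-inducing (DDI) and non-DDI chemicals. The genes were taken by exact symbol from the deposited expression table. They were DDB2, XPC, DDB1, ERCC6, XPA, ERCC1, ERCC4, ERCC5, POLH and RRM2B, that is 10 of 20802 gene targets. In the global branch of the repair pathway, the damage sensor made of DDB1 and DDB2 and the XPC protein find lesions anywhere in the genome. In the transcription-coupled branch, the ERCC6 protein (also called CSB) acts where RNA polymerase has stalled. Both branches then use XPA, which checks the lesion, and the nucleases that cut out the damaged strand, ERCC5 (XPG) on one side and the pair of ERCC1 and ERCC4 (XPF) on the other. POLH encodes the bypass polymerase eta, and RRM2B encodes a p53-inducible subunit of ribonucleotide reductase, which makes DNA precursors. DDB2, XPC, POLH and RRM2B are known targets of p53, the transcription factor activated by DNA damage.

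HepaRG™ is an established human hepatic cell line that forms hepatocyte-like and cholangiocyte-like cells. The DDI chemicals were aflatoxin B1 (AFB1, 0.25, 1 and 2.5 µM), 2-nitrofluorene (2NF, 10, 50 and 250 µM), cisplatin (CISP, 2, 5 and 10 µM), etoposide (ETP, 0.5, 2.5 and 10 µM) and methyl methanesulfonate (MMS, 50, 100 and 200 µM). AFB1 and 2NF form bulky adducts once metabolised, and CISP forms platinum adducts and cross-links. These 3 are called bulky-adduct formers here, while ETP is a topoisomerase II poison and MMS a methylating agent. The non-DDI chemicals were colchicine (COL, 0.05, 0.1 and 0.3 µM), 2-deoxy-D-glucose (2DG, 1.25, 5 and 10 mM), sodium ascorbate (ASC, 1, 2 and 10 mM), ampicillin (AMP, 1, 3 and 10 mM) and sodium chloride (NaCl, 1, 2.5 and 10 mM). Cells were dosed daily for 3 days and RNA was taken 7 h after the last dose. The 39 libraries comprised 30 treated libraries and 9 vehicle controls (4 DMSO, 4 media, 1 water), and each held RNA pooled from 3 cultures of 1 condition. AFB1, 2NF, CISP, ETP and COL were given in DMSO, MMS in water and the remaining chemicals in media, and AFB1 and COL shared a control. A treated library and its control therefore have no replicate, and the chemicals served as the replicates of a class.

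Library totals ranged from 8504699 to 16425527 counts (median 11202013). Levels are given as RPM, counts scaled to the library total, which compares libraries for 1 gene and not 1 gene with another. All 10 members had at least 44 counts in every library, the fewest for ERCC1 and the most for DDB1 (up to 9495). The hepatocyte-like markers summed to 19993 to 43667 RPM in the controls, and 8 of 8 were detected in each treatment class at the high concentration. ALB alone ran from 14020.2 to 33205.5 RPM in the controls. Among the 7 cholangiocyte-like markers, KRT19 ran from 396.6 to 1314 RPM in the controls, while KRT7, EPCAM and CFTR did not exceed 0.338 RPM in any control or high-concentration library. With bulk RNA, fewer cells of a type and less RNA per cell cannot be told apart.

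At the high concentration, 3 members were higher in DDI than in non-DDI chemicals in the order of the chemicals, namely DDB2, XPC and POLH. For each of them the 5 DDI chemicals lay above the 5 non-DDI chemicals in log2 ratio to the matched control. Of the 13602 genes tested at that concentration, 0.926% had that order. With the controls of a vehicle averaged in place of the matched one, XPC and POLH had it and DDB2 did not. For DDB2, COL (0.59) then exceeded CISP (0.54) and MMS (0.42). For POLH the margin was narrow, with the lowest DDI ratio at 0.50 in CISP and COL at 0.45. The remaining 7 members, DDB1, ERCC6, XPA, ERCC1, ERCC4, ERCC5 and RRM2B, overlapped between the classes. None of the 10 members passed an adjusted p of 0.05 in the main test (edgeR quasi-likelihood), where 0.0147% of all genes did. DESeq2 on the same design called 2 members, DDB2 and POLH, and 66 genes over all genes. In edgeR the unadjusted p was under 0.05 for 3 members, DDB2, XPC and POLH, all higher in DDI chemicals, against 3.88% of all genes tested. These 3 encode lesion finders of the global branch or a bypass polymerase. DDB1, the partner of DDB2 in the sensor, is not among them, nor are ERCC6, XPA, RRM2B and the nuclease genes.

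The promoter of DDB2 is shown because its sequence carries the paired p53 element that the other members' windows lack in this exact form. RefSeq promoter windows of 300 bases (250 before to 50 after a start site, GRCh38.p14) were found for 9 of the 10 members, 13 windows in all. Each was searched on both strands for the p53 half-site consensus of 10 bases, and for pairs of half-sites up to 13 bases apart that did not overlap. A half-site was present in 6.63% of the 35116 windows of all genes and in 1 of the 13 windows of the members. A pair was present in 0.0285% of all windows (10 windows). The window with a pair belonged to DDB2 (chr11:47214724-47215023, + strand), and its pair spanned 21 bases at chr11:47214979-47214999, 5 bases past the start site of that window. The stretch from 150 bases before that start to the end of the pair (chr11:47214824-47214999, GRCh38.p14, + strand, 5′ to 3′) has the half-sites in capitals.
DDB2: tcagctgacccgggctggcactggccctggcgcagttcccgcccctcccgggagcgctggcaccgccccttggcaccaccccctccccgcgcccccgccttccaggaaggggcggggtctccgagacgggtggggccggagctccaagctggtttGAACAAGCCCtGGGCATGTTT
The match is a description of these letters, and p53 binding was not measured in these libraries. That no exact match was found for XPC, POLH, DDB1, ERCC6, XPA, ERCC1, ERCC4 and ERCC5 says only that these letters are not in their windows.

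DDB2 (target AMPL1623151), the sensor subunit that binds ultraviolet and other lesions, was the member with the highest mean log2 ratio in the bulky-adduct formers at the high concentration. Its level was higher at each higher concentration of AFB1, at 66.7, 84.0 and 130.0 RPM against 55.1 RPM in the matched control. In 2NF it was 53.2, 89.2 and 93.4 RPM against 48.2 RPM. In CISP it was 47.1, 47.5 and 65.2 RPM against 36.4 RPM. The 3 bulky-adduct formers were above their controls at every concentration, and the change from low to mid was small in CISP. In ETP the level was 51.2, 67.5 and 74.1 RPM against 41.1 RPM. In MMS it was 101.6, 114.4 and 111.5 RPM against 83.1 RPM, so that 4 of the 5 DDI chemicals increased from low to mid to high and MMS did not.

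Among non-DDI chemicals, COL gave DDB2 levels of 56.1, 60.6 and 67.9 RPM against the 55.1 RPM of the control it shares with AFB1. In 2DG the levels were 91.0, 77.0 and 79.5 RPM against 84.0 RPM, and in ASC they were 78.5, 63.8 and 68.2 RPM against 86.2 RPM. In AMP they were 76.5, 81.6 and 97.9 RPM against 90.8 RPM, and in NaCl 68.6, 72.9 and 78.8 RPM against 83.2 RPM. DDB2 was above its matched control in 15 of 15 DDI conditions and in 5 of 15 non-DDI conditions. The concentrations of a chemical share its control, so the conditions counted in this paragraph are not independent. A low or a high control moves all ratios of its chemical together. The share of all genes with such counts of conditions was not determined. The largest log2 difference between controls of the same vehicle was 0.59 for DMSO and 0.13 for media. The water vehicle of MMS had 1 control and so no spread, and MMS was held to the wider of these spreads. The spread was then exceeded upward in 7 of 15 DDI conditions and in 0 of 15 non-DDI conditions, whereas 7 non-DDI conditions fell below it. With MMS held to the media spread the DDI count was 10 of 15.

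At the high concentration the log2 ratio of DDB2 averaged 1.00 ± 0.20 (SD, n = 3) in bulky-adduct formers, 0.63 ± 0.29 (SD, n = 2) in ETP and MMS, and -0.02 ± 0.23 (SD, n = 5) in non-DDI chemicals. These ratios are differences of log2(RPM + 1). The fitted difference between DDI and non-DDI chemicals was 0.82 (SE 0.14, 95% interval 0.51 to 1.13), a 1.77-fold difference, with an adjusted p of 0.101 in edgeR and 0.00128 in DESeq2. Bulky-adduct formers alone exceeded the non-DDI chemicals by 0.95 (SE 0.16, 95% interval 0.61 to 1.29) with an adjusted p of 0.0672 in edgeR, and all 3 of them lay above the non-DDI chemicals. In that contrast edgeR called 0 members and 0.0294% of all genes. DESeq2, which called more genes than edgeR over all genes, called 2 members. ETP and MMS exceeded the non-DDI chemicals by 0.63 (SE 0.20), with an edgeR adjusted p of 0.994 and both chemicals above. When any 1 chemical was left out, the DDI difference of DDB2 stayed between 0.71 and 0.92.

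At the mid concentration the DDI difference of DDB2 was 0.68 (SE 0.14), and at the low concentration it was 0.37 (SE 0.11), with edgeR adjusted p of 0.442 and 1.00 and all 5 DDI chemicals above all 5 non-DDI chemicals at both. That order was found in 0.778% of all genes tested at the mid and in 0.213% at the low concentration, and at both DDB2 was the member that had it. By unadjusted p under 0.05, 3 members (DDB2, POLH, XPC) were higher at the mid concentration, where 2.5% of all genes were, and 2 members (DDB2, POLH) at the low concentration, where 0.946% of all genes were. Across all genes edgeR called 0 members at either concentration, and DESeq2 called 0. In an earlier clustering of these data, not shown here and not reported by the authors, the low concentrations of CISP and 2DG had stood apart. Without CISP the low difference of DDB2 was 0.33, and without 2DG it was 0.42.

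The vehicle moved with DDB2. The 4 DMSO controls ran from 36.4 to 55.1 RPM (median 44.6), the 4 media controls from 83.2 to 90.8 RPM (median 85.1), and the water control was at 83.1 RPM. The DMSO and media controls did not overlap, and the media mean was 1.90 times the DMSO mean. The share of all genes without such overlap was not counted. In an edgeR fit of the 4 DMSO against the 4 media controls, made after these levels were seen, DDB2 differed by -0.90 (SE 0.13, adjusted p = 0.00518, lower in 4 of 4 DMSO controls) on the log2 scale. POLH was called too, at -0.47 (SE 0.12, adjusted p = 0.0494, lower in 4 of 4). Leaving out 1 control at a time kept DDB2 between -1.03 and -0.83 and moved the adjusted p of POLH between 0.0164 and 0.143 in edgeR. POLH did not pass without the CISP, NaCl, 2NF, 2DG, ASC, AMP or ETP control, and passed only without the one shared by AFB1 and COL. Thus 2 of 10 members were called lower in DMSO, against 3.68% of all 13053 genes tested (5.35% in either direction). RRM2B differed by -0.40 (SE 0.12, adjusted p = 0.0840 in edgeR) and XPC by 0.03 (SE 0.10). In the same fit 11 of 12 S-phase genes were called lower in DMSO (median -1.16, against 0.02 for all genes) and 4 of 8 hepatocyte-like markers were called higher. Their part in the DDB2 level was not tested.

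Because 4 of 5 DDI chemicals were given in DMSO and 4 of 5 non-DDI chemicals in media, the class and the vehicle can be compared within DMSO with COL only. At the high concentration the 4 DDI chemicals in DMSO had DDB2 ratios of 0.82 to 1.22 and COL had 0.30. In RPM these DDI libraries were at 65.2 to 130.0, COL was at 67.9 and the 4 non-DDI chemicals in media were at 68.2 to 97.9. The levels of DDI chemicals in DMSO thus overlapped those of non-DDI chemicals in media, while the ratios did not overlap those of non-DDI chemicals. All 3 concentrations of COL, and 8 of the 12 DDI conditions in DMSO, exceeded the highest DMSO control. When the matched control was not used as a block, the DDI difference of DDB2 at the high concentration was 0.21 (SE 0.24, adjusted p = 0.739 in edgeR) and at the low concentration it turned to -0.23 (SE 0.24). With 1 chemical in DMSO on the non-DDI side, no test within the vehicle was made.

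XPC (AMPL28513550), the lesion finder of the global branch, differed in this respect, since its controls overlapped between vehicles. Its highest levels were in MMS, at 192.7, 330.0 and 312.0 RPM against 152.1 RPM in the water control. In AFB1 it was at 140.6, 178.5 and 258.7 RPM against 145.4 RPM. The other DDI chemicals were closer to their controls. In 2NF the levels were 141.3, 176.8 and 159.9 RPM against 142.4 RPM, in ETP 157.4, 185.0 and 194.7 RPM against 164.1 RPM, and in CISP 192.5, 116.4 and 180.4 RPM against 158.3 RPM. The high-concentration log2 ratio was 0.83 in AFB1 and 1.03 in MMS, but 0.17 in 2NF, 0.19 in CISP and 0.25 in ETP, and the non-DDI chemicals ran from -0.31 in AMP to 0.11 in 2DG.

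The fitted DDI difference of XPC at the high concentration was 0.63 (SE 0.17, 95% interval 0.26 to 1.00), with an edgeR adjusted p of 0.340 and 5 of 5 DDI chemicals above the non-DDI chemicals. Without the block it was 0.59 (SE 0.12, adjusted p = 0.0515 in edgeR). Leaving out AFB1 lowered it to 0.43 and leaving out MMS to 0.48. Against the non-DDI chemicals, bulky-adduct formers differed by 0.55 (SE 0.19), or by 0.24 without AFB1, and ETP and MMS by 0.76 (SE 0.25), or by 0.40 without MMS. The XPC ratio exceeded the control spread of 0.20 in DMSO and 0.25 in media in 8 of 15 DDI conditions. It also did so in 1 of 15 non-DDI conditions, the low concentration of 2DG, which was at 180.9 RPM against 136.5 RPM. Here too the concentrations of a chemical share its control and are not independent.

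DDB1 (AMPL10516461), the partner of DDB2 and a scaffold of ubiquitin ligases, showed no such order. Its level lay between 340.3 and 623.7 RPM over the 39 libraries, and its log2 ratios between -0.47 and 0.48. No condition of any DDI chemical left the control spread of 0.54 in DMSO or 0.46 in media. The DDI difference at the high concentration was -0.19 (SE 0.15, 95% interval -0.52 to 0.15).

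ERCC6 (AMPL2259424), of the transcription-coupled branch, was measured at 5.74 to 22.3 RPM. In MMS it was at 9.4, 15.3 and 16.6 RPM against 8.81 RPM, and in ETP at 14.2, 8.8 and 10.9 RPM against 15.3 RPM. The log2 ratios at the high concentration were thus 0.84 in MMS and -0.45 in ETP, on opposite sides of 0. Its DMSO controls ran from 9.24 to 19.0 RPM, a log2 spread of 0.96 that the ETP ratio did not leave. The MMS ratios of 0.73 and 0.84 at the mid and high concentrations lay inside that spread and outside the media spread of 0.53. The DDI difference was 0.18 (SE 0.22) and turned to -0.09 without MMS.

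XPA (AMPL3439746), which verifies the lesion, ran from 9.36 to 24.3 RPM. Its media controls alone spanned 10.5 to 24.3 RPM, a log2 spread of 1.14. The DDI difference was -0.18 (SE 0.23, 95% interval -0.67 to 0.32). Among the DDI chemicals in DMSO, XPA was below the DMSO control spread of 0.28 in 3 conditions. These were the low and mid concentrations of CISP and the low concentration of ETP. The non-DDI chemical COL, also in DMSO, was below that spread at the high concentration (-0.40). In MMS, which had no spread of its own, the lowest XPA ratio was -0.50 at the mid concentration, outside the DMSO spread and inside the media spread.

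Of the nuclease genes, ERCC1 and ERCC5 were lowest in MMS at 200 µM and ERCC4 was not. ERCC1 (AMPL22321959) was at 13.1, 10.6 and 4.96 RPM in MMS against 12.7 RPM, a log2 ratio of -1.20 at the high concentration. In the other DDI chemicals at the high concentration ERCC1 was at 8.4 in AFB1, 9.1 in 2NF, 8.2 in CISP and 8.2 RPM in ETP, with ratios of 0.13 to 0.36. MMS was thus the only DDI chemical with ERCC1 under its control there. The lowest ERCC1 count was 44, and RPM at this level carries counting error. ERCC5 (AMPL5292234) was at 30.8, 38.2 and 21.5 RPM in MMS against 44.0 RPM, a ratio of -0.998 at the high concentration, and the remaining DDI chemicals ran from -0.18 to 0.30. Its media controls spanned 31.1 to 49.3 RPM. ERCC4 (AMPL28737581), the partner of ERCC1, ran from 13.4 to 23.5 RPM over all libraries, and its ratio in MMS at the high concentration was 0.22. With MMS left out, the DDI difference of ERCC1 changed from -0.06 (SE 0.29) to 0.30 and that of ERCC5 from -0.15 (SE 0.23) to 0.09. In the same MMS library the hepatocyte-like markers summed to 7009 RPM, below the 9 controls, and the 12 S-phase genes to 933.1 RPM, above the 9 controls (279.7 to 688.3 RPM). The 2NF library at the high concentration also had a hepatocyte-like sum below the 9 controls (12357 RPM) and an S-phase sum above them (786.3 RPM). Its ratios of ERCC1 and ERCC5 were 0.35 and 0.30. The non-DDI chemical 2DG had both too at the high concentration (18839 and 760.9 RPM), with ERCC1 and ERCC5 ratios of 0 and -0.11. COL was also below on the hepatocyte-like sum (18572 RPM), and AFB1 and ASC above on the S-phase sum (748.2 and 692.9 RPM). The part of these levels in the nuclease genes was not tested.

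POLH (AMPL29597749), the bypass polymerase that reads past several lesion types, was at 38.0, 61.6 and 75.6 RPM in AFB1 against 37.6 RPM. In 2NF it was at 36.6, 56.5 and 56.9 RPM against 27.4 RPM, and in CISP at 35.7, 23.1 and 45.1 RPM against 31.3 RPM. The mid concentration of CISP was the only DDI condition below its control. In ETP the levels were 43.2, 49.7 and 46.8 RPM against 30.9 RPM, and in MMS 58.6, 92.6 and 119.3 RPM against 45.8 RPM. The level in MMS at 200 µM was the highest of the 39 libraries. The non-DDI chemicals at the high concentration ran from 38.6 RPM in AMP to 53.7 RPM in 2DG, with ratios of -0.31 to 0.26, while those of the DDI chemicals ran from 0.51 in CISP to 1.36 in MMS. The ratios did not overlap at the high concentration.

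The DDI difference of POLH at the high concentration was 0.85 (SE 0.16, 95% interval 0.50 to 1.19), a 1.80-fold difference, with an adjusted p of 0.103 in edgeR and 0.00418 in DESeq2. It stayed between 0.70 and 0.98 with each chemical left out, and was 0.55 (SE 0.20, adjusted p = 0.215 in edgeR) without the block. Bulky-adduct formers exceeded the non-DDI chemicals by 0.78 (SE 0.18) and ETP and MMS did so by 0.95 (SE 0.23). Within DMSO, COL had a POLH ratio of 0.20 at the high concentration against 0.51 to 1.03 in the 4 DDI chemicals.

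RRM2B (AMPL7057854) separated the classes less. It was at 28.6, 34.4 and 40.8 RPM in AFB1 and at 30.7, 32.5 and 43.8 RPM in COL, against the same control at 26.9 RPM. In 2NF it was at 28.1, 38.2 and 36.5 RPM against 22.8 RPM, and in MMS at 44.1, 60.7 and 51.0 RPM against 35.8 RPM. CISP and ETP were closer to their controls, with ratios of 0.19 and 0.08 at the high concentration. COL had the highest high-concentration ratio of all 10 chemicals, 0.68, so the classes overlapped. The DDI difference was 0.12 (SE 0.16, 95% interval -0.22 to 0.47) and turned to -0.06 without the block. No promoter window was at hand for RRM2B.

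No separation of the bulky-adduct formers from ETP and MMS was found in these genes. At the high concentration 0 of 10 members passed an unadjusted p of 0.05 in edgeR, where 1.83% of all genes did, and DESeq2 called 0 members as well. All 3 bulky-adduct formers lay above both ETP and MMS in 0 of 10 members, an order found in 8.78% of all genes. They all lay below in 0 members, an order found in 6.4%. With shares this small, a count of 0 of 10 does not set the members apart from other genes. The difference of bulky-adduct formers minus ETP and MMS was 0.33 for DDB2 (95% interval -0.15 to 0.80), -0.21 for XPC (-0.78 to 0.36) and -0.17 for POLH (-0.71 to 0.37). The widest intervals were those of ERCC1 (0.70, -0.30 to 1.70) and ERCC5 (0.52, -0.26 to 1.29). For XPC, XPA, POLH, ERCC1, ERCC5 and ERCC6 the sign of this difference turned when MMS was left out, and ERCC1 then stood at -0.23. The difference of DDB2 fell to 0.06 without MMS. These intervals include differences of more than 0.3 in either direction for several members, so that a difference of that size was not detectable with 3 against 2 chemicals.

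Set against the non-DDI chemicals, the same 3 members had an unadjusted p under 0.05 in both DDI groups. For bulky-adduct formers 4.01% of all genes were higher at that threshold, and for ETP and MMS 1.97% were. All 3 bulky-adduct formers lay above the 5 non-DDI chemicals in 4 members, DDB2, XPC, ERCC1 and POLH, an order found in 2.76% of all genes. With the controls of a vehicle averaged, that number was 2, XPC and POLH. For ERCC1 the order with matched controls was close to a tie, at 0.1325 in AFB1 against 0.1322 in NaCl. Its fitted difference of bulky-adduct formers minus non-DDI chemicals was 0.22 (SE 0.33).

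**Figure D1:**
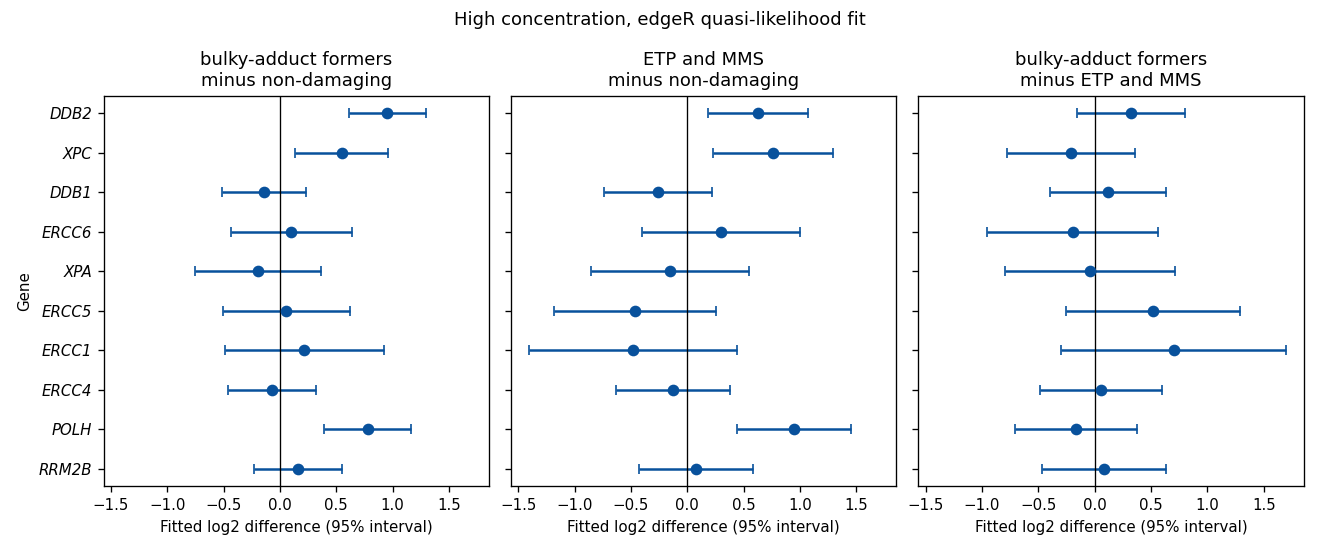
Fitted log2 differences of the 10 members at the high concentration with 95% intervals (horizontal axis), for bulky-adduct formers minus non-DDI, ETP and MMS minus non-DDI, and bulky-adduct formers minus ETP and MMS. The intervals of DDB2, XPC and POLH lie above 0 in the first and second panels, and all 10 intervals include 0 in the third.

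Other genes of these routes were read in the same fit. Of 35 other nucleotide excision repair genes, 34 passed the filter on low counts, and 0 were called in edgeR. By unadjusted p under 0.05, 6 were higher in DDI chemicals at the high concentration, where 3.88% of all genes tested were, and 1 was lower. The median difference was 0.16 against -0.02 for all genes tested. Between the vehicle controls, edgeR called 7 of these 34 genes lower in DMSO than in media, against 3.68% of all genes, and 0 higher. The list includes PCNA, which also serves replication, and the 12 S-phase genes were higher in DDI chemicals too, with a median of 0.65. Whether the higher count is particular to excision repair was not tested. The highest DDI difference in the list was that of PCNA, the sliding clamp of repair and replication, at 1.07 (SE 0.19, adjusted p = 0.102 in edgeR). PCNA was at 196.7 RPM in AFB1 against 54.0 RPM, and its log2 ratios were 0.70 to 1.85 in the DDI chemicals and -0.58 to 0.38 in the non-DDI chemicals. The lowest was CUL4B, a ubiquitin ligase scaffold that works with DDB1, at -0.33 (SE 0.14, adjusted p = 0.644 in edgeR). Of 7 other bypass genes, 6 had a target and were tested, with 0 called and 2 higher by unadjusted p, from MAD2L2 at 0.54 (SE 0.19) to POLI at -0.32 (SE 0.25). The remaining ribonucleotide reductase genes, RRM2 and RRM1, were at 1.69 (SE 0.30) and 0.77 (SE 0.27) with 0 called in edgeR, both above the 0.12 of RRM2B. RRM2, the S-phase subunit, had log2 ratios of 0.97 in CISP to 2.88 in 2NF and of 0.87 in COL at the high concentration.

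Among 10 reference p53 targets, 10 were higher by unadjusted p, where 3.88% of all genes tested were, and 0 were called in edgeR. Their median was 0.80, from FDXR at 1.39 (SE 0.21, adjusted p = 0.0504 in edgeR) to ZMAT3 at 0.38 (SE 0.13). CDKN1A, the cell cycle inhibitor p21, was at 0.58 (SE 0.15) and MDM2, the p53 ligase, at 0.98 (SE 0.29). In the edgeR fit of DMSO against media controls, 2 of these 10 targets were called lower in DMSO, where 3.68% of all genes were. Their median there was -0.35 against 0.02 for all genes, with 1 of 10 above 0. Of 12 S-phase genes, 8 were higher in DDI chemicals by unadjusted p and 0 were called. Their median was 0.65, from CDT1 at 1.26 (SE 0.26) to MCM5 at 0.24 (SE 0.26). The 8 hepatocyte-like markers had a median of -0.79 at the high concentration, with 0 called in edgeR and 2 lower by unadjusted p, from SERPINA1 at 0.14 (SE 0.29) to CYP3A4 at -1.67 (SE 0.66). At the mid concentration their median was -0.82, with 4 lower by unadjusted p and 0 of 8 above 0. Of the 4 cholangiocyte-like markers tested at the high concentration, 1 was lower by unadjusted p, SOX9 at -1.002 (SE 0.29), and KRT19 was the highest at 0.03 (SE 0.39). The share of all genes lower by unadjusted p was not counted, so the counts of lower markers have no background here. The part of S-phase genes and cell type markers in the levels of the members was not tested.

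The patterns of DDB2 and XPC over the 30 treated libraries had different neighbours. Likeness was Pearson's r of the log2 ratios among 11562 genes that had 10 or more counts in each of the libraries, a description only, since libraries share controls and concentrations of 1 chemical are not independent. Among the genes most like DDB2 were TYMS, the thymidylate synthase gene (r = 0.920), BAX (0.903) and FAS (0.868), which encode cell death proteins, and SYTL1 (0.877). Among those most like XPC were the p53-induced phosphatase gene PPM1D (0.890), CEP76 (0.877), the decoy receptor gene TNFRSF10D (0.870) and MTA2 (0.849). Among the 10 members, XPC and POLH were the most alike (r = 0.840), followed by DDB2 and POLH (0.739), while DDB2 and XPC reached 0.567. ERCC4 and ERCC5 were the least alike (r = -0.548).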

How the data were processed

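The authors used the Torrent aligner against the panel's transcripts (hg19) and deposited raw counts per target, 1 target per gene, and RPM values, the counts scaled to the library total by the authors. The 6 annotation columns were not used and 10 spike-in targets, all at 0, were dropped. No hg19 annotation was used here, so targets carry no coordinates.

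The log2 ratio of a treated library is its log2(RPM + 1) minus that of the control matched to it. Counts were tested with edgeR 4.0.16 (TMM, filterByExpr, quasi-likelihood) in R 4.3.3, 1 fit per concentration of 19 libraries with the control set as a block, 3 class terms and 7 residual degrees of freedom. P-values were adjusted over all genes tested (Benjamini-Hochberg). The step was tested on simulated data. Alternatives were DESeq2 1.42.0 and its size factors, library totals only, no filter, no block, 1 fit of all 39 libraries, other pseudocounts and controls, and each chemical left out. Since cultures were pooled, p-values measure the spread between chemicals, potency included. Totals set the precision of low counts, and reads without molecular identifiers are not independent molecules.

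The members and lists were chosen with earlier results of these data known. For each list the highest and the lowest gene by DDI difference were named, with CDKN1A, MDM2 and genes among the 5 most like DDB2 and XPC, of which some are not reported here. The DMSO against media fit and the media spread for MMS were added after the levels were seen.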

Additional observations from a re-analysis of the deposited data

Results flagged for a closer look

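In groups of 4 controls or 5 chemicals, 1 value lay far from the rest in 2 of 40 groups examined, where chance gives about 1 in 20. The ERCC1 log2 ratio of MMS at the high concentration (-1.20) stood apart from the other DDI chemicals, and that of AMP (-0.47) from the other non-DDI chemicals. The vehicle controls, which served only as references in the class comparisons, carried a difference of their own in 2 members, DDB2 (-0.90, DMSO minus media on the log2 scale) and POLH (-0.47).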

How the results depend on the processing

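No member was called in edgeR with DESeq2 size factors, without the block or with any chemical left out. Members called for DDI against non-DDI at the high concentration numbered 0 in the main fit, 2 in DESeq2 and 2 with all 39 libraries, where DDB2 and POLH passed; for bulky-adduct formers against non-DDI they numbered 1 with library totals, 1 without the filter, 2 in DESeq2 and 2 with all 39 libraries. At the mid concentration the fit of all 39 libraries called 1. Over all genes, the DDI contrast at the high concentration called 2 genes in the main fit, 7 with library totals, 10 without the filter, 66 in DESeq2, 27 without the block, 138 with all 39 libraries and 0 to 16 with a chemical left out. The bulky contrast called 4, and then 15, 21, 86, 13, 165 and 0 to 31. ETP and MMS against non-DDI called 0 genes, and 0 to 1 with a chemical left out. The DMSO against media fit called 698 genes, 1144 in DESeq2 and 254 to 907 with a control left out, and 1 to 2 members in the latter. With controls averaged by vehicle, 2 members had all bulky-adduct formers above the non-DDI chemicals, in place of 4, and the number with all 5 DDI above all 5 non-DDI chemicals was 2 in place of 3, without DDB2, while 1 member (XPA) in place of 0 had all bulky-adduct formers below ETP and MMS.

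Signs turned for several differences, none of which passed an adjusted p of 0.05. Without the block, RRM2B stood at -0.064 for DDI and -0.080 for bulky minus ETP and MMS, ERCC6 at 0.038 for the latter, and at the low concentration DDB2 at -0.23 and POLH at -0.020. With a chemical left out, the DDI difference ran from -0.44 (without ETP) to 0.30 (without MMS) for ERCC1. For ERCC5 it ran from -0.41 (without ETP) to 0.092 (without MMS). For ERCC6 it ran from -0.088 (without MMS) to 0.44 (without ETP). The DDI difference of ERCC1 without AFB1 was 0.0023. The difference of bulky minus ETP and MMS ran from -0.55 (without ETP) to 0.13 (without MMS) for XPC. The ranges that follow go from lowest to highest, whichever chemical was left out. This difference ran from -0.12 to 0.018 for XPA, from -0.23 (without MMS) to 1.64 for ERCC1 and from -0.13 to 0.25 for ERCC4. It ran from -0.11 to 1.18 for ERCC5, from -0.84 to 0.45 for ERCC6, from -0.50 to 0.18 for POLH and from -0.073 to 0.25 for RRM2B. In the controls XPC ran from -0.025 to 0.069 with a control left out. The causes were not tested. No paired analysis was possible because each condition has 1 library and the labels number no replicates across groups; the control set is the block of the main fit. With 1 pooled library per condition the spread between cultures is unknown.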
